A study of Mus musculus with 12 samples.

Results

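The spectrin-actin membrane skeleton is described here through the open chromatin at 10 of its genes in transformed mouse embryonic fibroblasts (MEFs). The genes were Sptan1, Sptbn1, Add1, Add2, Add3, Epb41, Epb41l1, Epb41l2, Epb41l3 and Utrn. A region was taken as belonging to a gene where it overlapped the gene body or the 50 kb on either side of it. This gave 288 regions, called loci, of 147985 in all. The genes had been chosen with the peak lists in view, so their counts of changed loci are a description and carry no test.

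Spectrin is a long, flexible protein of paired alpha and beta chains that are linked into a net under the plasma membrane by short actin filaments. Adducins cap the ends of these filaments and bring spectrin to them, and proteins of the 4.1 family strengthen the spectrin-actin contact and tie it to membrane proteins. Utrophin, a relative of dystrophin, links actin to the dystroglycan complex at the cell surface. The net is best known from red blood cells, and most other cells, fibroblasts included, build it from non-erythroid family members.

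Chromatin accessibility was measured by ATAC-seq, which marks open chromatin by the insertion of adapters with the Tn5 transposase. The 12 samples came from 3 MEF lines made from E13.5 embryos, each immortalised by a pair of transgenes. Hdac7SA.Mef2d cells carried Hdac7, with serines changed to alanine so that it stays in the nucleus, and Mef2d, and had 2 samples, all untreated. Hras.E1A cells carried the Hras oncogene and adenoviral E1A, with 2 samples treated with PD (PD0325901, an inhibitor of the kinase MEK), 1 treated with TSA (trichostatin A, an inhibitor of histone deacetylases) and 2 untreated. Hras.Myc cells carried Hras and Myc, with 2 samples treated with PD, 1 with TSA and 2 untreated. Treatment lasted 2 days. The source is labelled as OG2 MEFs, which carry a green fluorescent reporter of Oct4. A growth note in the labels names the wildtype ICR background instead, and the study's methods, which list the experiments done in ICR lines, do not count ATAC-seq among them. The lines had been passaged for at least a month, and wildtype MEFs were not analysed here.

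The samples of a group were pooled by the authors into 1 list of peaks, so no replicate spread could be measured and no p-value is given. A locus was called open in a list where the list held a peak on it. The lists held 119251 peaks in Hdac7SA.Mef2d cells, 59823 in Hras.E1A cells with PD and 81201 untreated, and 56774 in Hras.Myc cells with PD and 67738 untreated. Each peak carried a score of unstated scale, of which the lowest was 1.2, and depth is unknown. Scores are given with 3 digits and can be ordered within a list only. A peak lost in every cell and a peak lost in part of the cells cannot be told apart. Promoters of 8 to 11 of 12 fibroblast marker genes were open in each list, those of Col1a1, Fn1, Vim and Pdgfra in all 7. The promoter of 1 of 5 blood markers (Csf1r) was open, in every list. Promoters of other cell types' markers were open as well, at 3 or 4 of 4 epithelial, 3 or 4 of 4 neural and 1 to 3 of 4 endothelial genes in each list, those of Epcam, Krt8 and Krt18 in all 7.

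Of the 37 loci that PD closed in both Hras lines, 25 lay in gene bodies away from promoters, 10 in flanks and 2 at inner start sites. The windows of all protein-coding genes held 12128 loci closed in both lines. Of these, 7763 lay in gene bodies away from promoters, 3988 in flanks and 377 at promoters. The printed sequences are the central 200 bases of loci that PD closed, with the AP-1 motif TGANTCA in capitals. AP-1 factors such as Fos and Jun act at the end of the kinase pathway that holds MEK, which is why their motif is marked. The first sequence is the stretch just before the start of Add2, whose promoter stayed open in all 7 lists, and it held no AP-1 motif. Loci are numbered along the chromosome within each gene's window. All sequences are read 5′ to 3′ on the plus strand of GRCm38 (mm10).
Add2 promoter, chr6:86028481-86028680: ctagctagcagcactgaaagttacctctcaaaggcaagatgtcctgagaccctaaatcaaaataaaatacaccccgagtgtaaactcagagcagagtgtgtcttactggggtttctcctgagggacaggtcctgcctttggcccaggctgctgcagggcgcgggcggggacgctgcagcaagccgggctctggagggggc
Add2 locus 6, chr6:86031538-86031737: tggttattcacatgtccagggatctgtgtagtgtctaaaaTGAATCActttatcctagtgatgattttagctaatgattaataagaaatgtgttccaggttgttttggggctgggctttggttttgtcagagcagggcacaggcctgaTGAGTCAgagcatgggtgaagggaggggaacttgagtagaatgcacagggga
Add2 locus 8, chr6:86059129-86059328: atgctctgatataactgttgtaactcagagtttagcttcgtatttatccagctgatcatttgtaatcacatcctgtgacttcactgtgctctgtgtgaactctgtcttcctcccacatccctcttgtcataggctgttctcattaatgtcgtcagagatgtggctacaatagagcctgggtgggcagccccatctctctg
Add2 locus 11, chr6:86074940-86075139: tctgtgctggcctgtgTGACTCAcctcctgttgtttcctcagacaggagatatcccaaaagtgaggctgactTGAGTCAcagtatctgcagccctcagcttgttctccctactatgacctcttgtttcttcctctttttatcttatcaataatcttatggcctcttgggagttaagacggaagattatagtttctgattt
Add2 locus 13, chr6:86085583-86085782: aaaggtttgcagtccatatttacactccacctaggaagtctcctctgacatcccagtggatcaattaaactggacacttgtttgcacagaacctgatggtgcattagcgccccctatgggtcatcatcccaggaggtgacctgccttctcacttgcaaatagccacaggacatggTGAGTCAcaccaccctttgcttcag
Epb41l2 locus 23, chr10:25458071-25458270: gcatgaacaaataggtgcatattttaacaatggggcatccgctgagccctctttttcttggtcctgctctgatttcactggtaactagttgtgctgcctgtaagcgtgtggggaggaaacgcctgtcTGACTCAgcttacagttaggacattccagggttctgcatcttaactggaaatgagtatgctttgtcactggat
Epb41l3 locus 28, chr17:69277524-69277723: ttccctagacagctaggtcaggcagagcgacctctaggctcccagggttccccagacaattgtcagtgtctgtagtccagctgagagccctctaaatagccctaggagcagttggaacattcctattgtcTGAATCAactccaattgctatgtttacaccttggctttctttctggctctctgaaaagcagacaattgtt
Sptbn1 locus 6, chr11:30102817-30103016: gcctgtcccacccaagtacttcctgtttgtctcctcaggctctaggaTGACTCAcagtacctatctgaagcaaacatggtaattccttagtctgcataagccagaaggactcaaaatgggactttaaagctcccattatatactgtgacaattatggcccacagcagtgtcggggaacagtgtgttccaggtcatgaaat
Utrn locus 5, chr10:12424451-12424650: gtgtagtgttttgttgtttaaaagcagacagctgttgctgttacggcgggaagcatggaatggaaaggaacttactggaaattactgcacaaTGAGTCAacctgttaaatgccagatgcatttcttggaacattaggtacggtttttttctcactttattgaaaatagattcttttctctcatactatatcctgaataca

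The Add2 loci 6, 8 and 11 lie in intron 1 and locus 13 overlaps exon 3, at a second start site inside the gene. Locus 11 held 2 AP-1 motifs, locus 6 held 2, locus 13 held 1 and locus 8 held 0. The loci at Epb41l2 (intron 3), Epb41l3 (intron 15), Sptbn1 (intron 34) and Utrn (intron 65) held 1 each. These loci were chosen for print by their state and, at the genes other than Add2, for holding the motif.

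The next set shows the reverse case, loci that no untreated or TSA-treated Hras list held and that both PD lists held. Here the capitals mark GGAATG, or CATTCC where it reads on the other strand, the core motif of the TEAD factors, which bind DNA together with Yap1. Of the 7 loci opened with PD in both lines, 4 held this motif, and they are the ones printed below. Closed loci printed above held it too, in lower case, with 1 each at Epb41l2 locus 23, Epb41l3 locus 28 and Utrn locus 5. Utrn locus 35, also opened in both lines, held an AP-1 motif.
Epb41 locus 8, chr4:131915218-131915417: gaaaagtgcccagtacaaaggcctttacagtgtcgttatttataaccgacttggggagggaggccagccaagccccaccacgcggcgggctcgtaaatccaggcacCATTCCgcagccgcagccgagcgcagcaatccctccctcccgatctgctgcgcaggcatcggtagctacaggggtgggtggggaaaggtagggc
Epb41 locus 15, chr4:131970531-131970730: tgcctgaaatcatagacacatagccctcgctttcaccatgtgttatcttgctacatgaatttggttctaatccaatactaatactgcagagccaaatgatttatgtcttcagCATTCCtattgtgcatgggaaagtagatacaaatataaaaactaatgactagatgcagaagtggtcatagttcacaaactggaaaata
Sptbn1 locus 35, chr11:30292836-30293035: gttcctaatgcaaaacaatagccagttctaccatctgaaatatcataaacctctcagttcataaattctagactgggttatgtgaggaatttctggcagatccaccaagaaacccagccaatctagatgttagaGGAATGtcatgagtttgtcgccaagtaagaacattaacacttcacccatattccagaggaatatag
Utrn locus 34, chr10:12703622-12703821: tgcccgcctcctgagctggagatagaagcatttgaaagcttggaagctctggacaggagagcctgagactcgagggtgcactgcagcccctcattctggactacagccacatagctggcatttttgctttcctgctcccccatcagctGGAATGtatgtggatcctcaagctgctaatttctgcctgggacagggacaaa

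Taking the 10 genes as a group, PD removed 73 of the 166 loci open in untreated Hras.E1A cells, 44.0% (95% exact binomial interval 36.3 to 51.9). Over all loci of the series the share closed was 38.9%. In Hras.Myc cells PD removed 69 of 143 loci, 48.3% (39.8 to 56.8), and 38.4% over all loci. The intervals reflect counting error alone and take each locus as independent of the next. Loci that gained a peak were fewer, 17 of the 110 open with PD in Hras.E1A cells (15.5%, against 16.9% over all loci) and 18 of 92 in Hras.Myc cells (19.6%, against 26.4%). Per gene, the median share of loci closed was 44.9% over the 10 genes in Hras.E1A cells, and 30% over all 7630 coding genes with at least 10 open loci. In Hras.Myc cells it was 53.1% over the 8 members with that many loci, and 30% over 6340 genes. These medians take no account of gene length or of the position of loci. Over the whole series, PD closed 46.8% of gene body loci and 6.98% of promoter loci in Hras.E1A cells. Windows of neighbouring genes overlap, so a locus can count for several genes in the medians over coding genes. Counted once each, 36.4% of the loci in windows of coding genes closed in Hras.E1A cells and 36.6% in Hras.Myc cells.

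PD lists are the shortest of each line. With every list cut to its 56774 best peaks, the share closed in Hras.E1A cells was 35.5% at the 10 genes and 36.2% over all loci. In Hras.Myc cells the shares were 45.3% and 36.4%. Add2, Epb41l2 and Utrn had been named earlier for loci closed with PD. Without them, an alternative chosen after seeing the data, the share was 38.5% in Hras.E1A cells, against 38.9% over all loci. In Hras.Myc cells it was 44.0%, against 38.4%. The closed loci were weaker than average before treatment. Their median score percentile within the untreated list was 33.6 in Hras.E1A cells and 33.2 in Hras.Myc cells, against 44.5 and 43.9 for all closed loci.

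**Figure D1:**
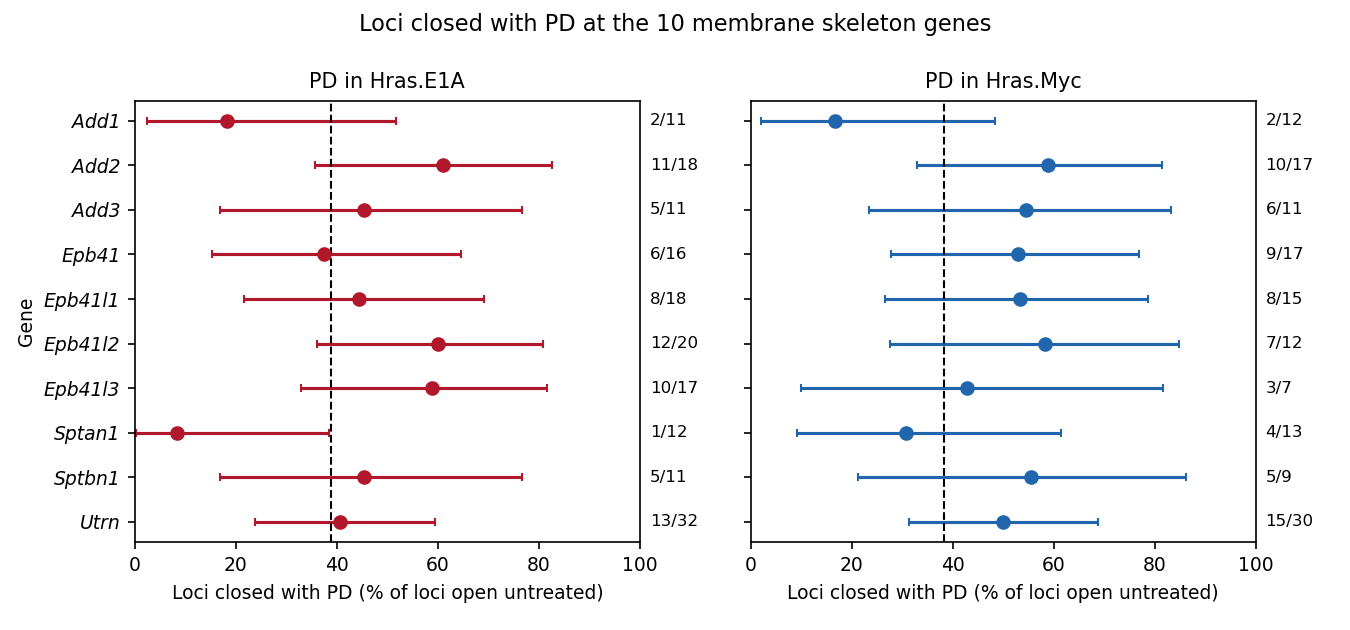
Share of loci closed with PD at each gene (x axis, percent of loci open in the untreated list), in Hras.E1A cells on the left and Hras.Myc cells on the right. Points are shares, bars are 95% exact binomial intervals, the numbers at the right give closed loci over loci open untreated, and the dashed line is the share over all loci. Add2 lies highest at 61.1% and 58.8%, Sptan1 lowest in Hras.E1A cells at 8.33% and Add1 lowest in Hras.Myc cells at 16.7%, and only the interval of Sptan1 in Hras.E1A cells ends below the dashed line.

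The shares differed by position. At the genes' own promoters, PD closed 3 of 19 loci in each line, 15.8% (3.38 to 39.6), and over all promoter loci the shares were 6.98% in Hras.E1A and 7.16% in Hras.Myc cells. PD opened 1 of the 17 own promoter loci open with PD in Hras.E1A cells and 0 of 16 in Hras.Myc cells, and 3.52% and 4.49% of all promoter loci. The 12 loci at promoters of neighbouring genes, such as Set, Nop14 and Aar2, were open in all 7 lists. In gene bodies away from promoters, PD closed 49 of 84 loci in Hras.E1A cells, 58.3% (47.1 to 69.0), and 43 of 66 in Hras.Myc cells, 65.2% (52.4 to 76.5). The shares over all gene bodies were 46.8% and 48.4%. Shares by position are for the lists as deposited and were not recomputed in lists of equal length. In the flanks it closed 21 of 51 loci in Hras.E1A cells (41.2%, against 41% over all flanks) and 23 of 46 in Hras.Myc cells (50.0%, against 42%). The loci opened lay close to the background, with 10 of 45 in gene bodies (22.2%, against 21% over all gene bodies) and 6 of 36 in flanks (16.7%, against 16.8%) in Hras.E1A cells. In Hras.Myc cells they were 11 of 34 (32.4%, against 32.3%) and 7 of 30 (23.3%, against 26.8%).

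**Figure D2:**
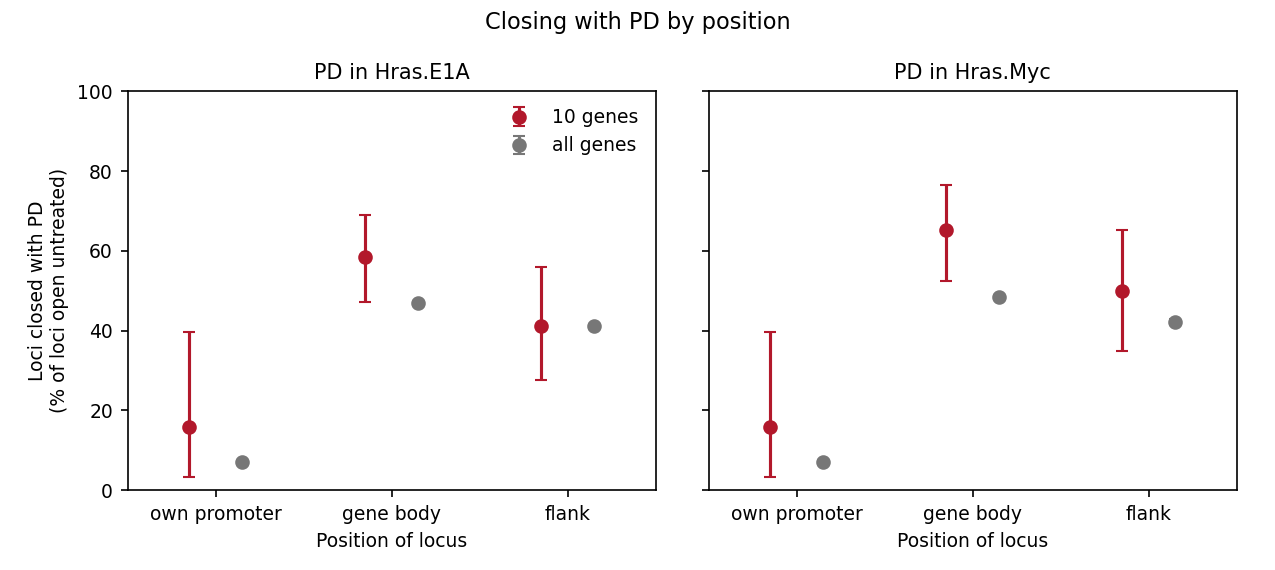
Share of loci closed with PD (y axis, percent of loci open untreated) at own promoters, gene bodies and flanks (x axis), for the 10 genes in red and for all genes in grey. Points are shares and bars 95% exact binomial intervals. The gene bodies of the 10 genes lie highest, at 58.3% and 65.2%, against 46.8% and 48.4% for all genes, in the lists as deposited.

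The adducin genes had a wide range of shares. Add2 encodes beta-adducin, the form best known from red blood cells and neurons, and lost the largest share of its loci in the lists as deposited, 11 of 18 in Hras.E1A cells (61.1%, interval 35.7 to 82.7) and 10 of 17 in Hras.Myc cells (58.8%, 32.9 to 81.6). Cut to equal list length, the counts were 6 of 11 and 8 of 14, the same shares as at Epb41l3 in Hras.E1A cells and at Sptbn1 in Hras.Myc cells. With a stricter threshold, which dropped the 25% of peaks with the lowest scores from each list, they were 7 of 12 in each line, a lower share than at Utrn in Hras.E1A cells and than at Sptbn1, Epb41l2 and Add3 in Hras.Myc cells. In its gene body away from promoters 7 of 8 and 6 of 7 loci closed. The loss was continuous, since the 7 neighbouring loci of Hras.E1A cells between 30.5 and 58.5 kb past the start were all without a peak with PD, a span of 28.3 kb, and so were the 6 of these that were open in Hras.Myc cells.

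Locus 11 of Add2, in intron 1, had no peak in either PD list. Its score was 8.86 in Hdac7SA.Mef2d cells, 10.9 with TSA and 7.54 untreated in Hras.E1A cells, and 5.14 with TSA and 7.46 untreated in Hras.Myc cells. Locus 8 had no peak in Hdac7SA.Mef2d cells or with PD, and scored 7.33 with TSA and 4.97 untreated in Hras.E1A cells, and 5.50 with TSA and 6.98 untreated in Hras.Myc cells. Both loci thus kept their peak with TSA in both lines. Locus 6 scored 3.26 in Hdac7SA.Mef2d cells, 7.65 with TSA and 3.02 untreated in Hras.E1A cells, and 6.59 with TSA and 2.78 untreated in Hras.Myc cells.

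The start sites of Add2 did not move together. The locus at its 5′ start (locus 5) was open in all 7 lists, with a score of 2.30 in Hdac7SA.Mef2d cells, 9.0 with PD, 2.52 with TSA and 4.27 untreated in Hras.E1A cells, and 5.45 with PD, 3.34 with TSA and 4.52 untreated in Hras.Myc cells. The internal start at exon 3 (locus 13) had no peak in Hdac7SA.Mef2d cells or with PD in either line. It scored 4.44 with TSA and 1.90 untreated in Hras.E1A cells, and 6.15 with TSA and 4.69 untreated in Hras.Myc cells. The loci of Add2 that PD kept, 7 in each line, ranked higher in the PD lists than untreated. The median rise was 12.3 percentiles in Hras.E1A cells and 8.2 in Hras.Myc cells, against 1.09 and 0.054 for all kept loci.

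**Figure D3:**
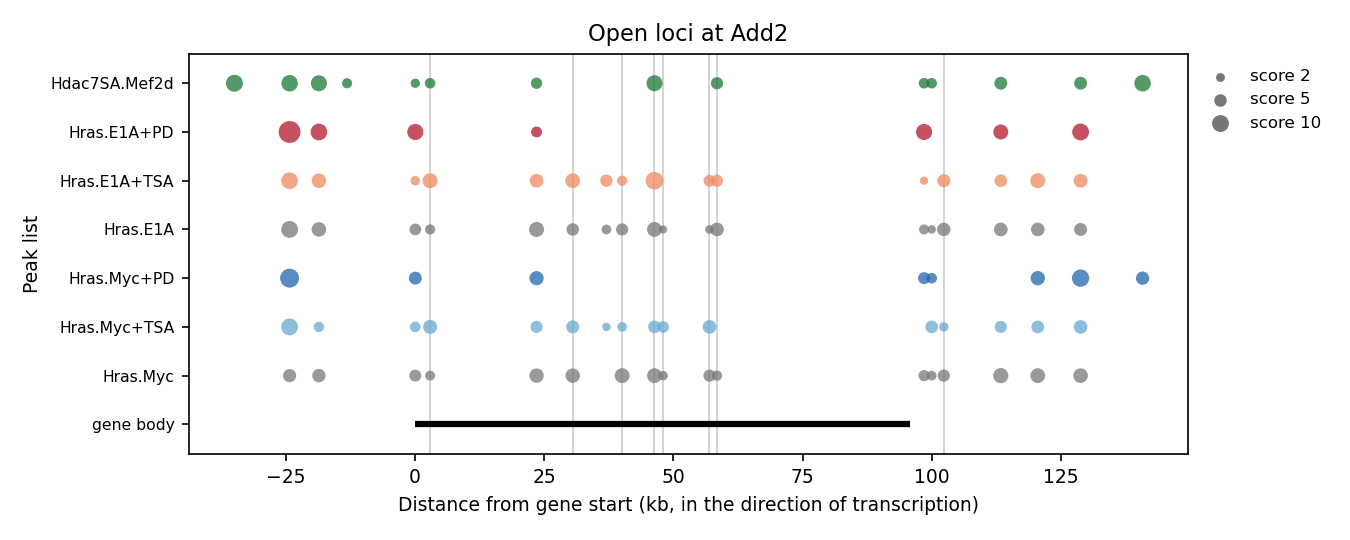
Open loci at Add2 in the 7 peak lists (rows) by distance from the gene start in kb (x axis, in the direction of transcription). Each dot is a locus with a peak, its area grows with the score, the black bar is the gene body and grey lines mark the 8 loci closed with PD in both Hras lines. Between about 30.5 and 58.5 kb both PD rows are empty, while the untreated and TSA rows of both lines hold dots there.

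Add1, the widely expressed alpha-adducin, kept most of its loci. PD closed 2 of 11 in Hras.E1A cells (18.2%) and 2 of 12 in Hras.Myc cells (16.7%), and opened 0 in either. Of its 15 loci 4 lie at promoters of neighbours and 9 were open in all 7 lists. Its own promoter scored 7.74 in Hdac7SA.Mef2d cells, 13.8 with PD, 10.6 with TSA and 8.79 untreated in Hras.E1A cells, and 8.95 with PD, 23.7 with TSA and 9.20 untreated in Hras.Myc cells. The locus 7.74 kb before its start closed with PD in both lines, where its untreated score was 3.55 in Hras.E1A and 3.68 in Hras.Myc cells, and it scored 6.38 in Hdac7SA.Mef2d cells.

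Add3, gamma-adducin, lost 5 of 11 loci in Hras.E1A and 6 of 11 in Hras.Myc cells, and 3 of these were shared. Its main promoter (locus 4) was open in all 7 lists with scores between 8.77 and 12.97. An internal start in intron 1 (locus 7) had no peak in Hras.E1A cells with PD or TSA and scored 6.74 untreated, whereas in Hras.Myc cells it scored 4.01 with PD, 2.17 with TSA and 6.78 untreated. Of the loci lost in both lines, the one with the highest untreated score in Hras.E1A cells lay downstream of the gene (locus 13), while in Hras.Myc cells locus 15 scored higher, at 7.79. Locus 13 scored 8.30 with TSA and 12.3 untreated in Hras.E1A cells, 6.31 with TSA and 6.22 untreated in Hras.Myc cells, and had no peak in Hdac7SA.Mef2d cells.

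Sptan1 encodes the non-erythroid alpha chain, alpha-II spectrin, and lost 1 of 12 loci with PD in Hras.E1A cells (8.33%, interval 0.21 to 38.5) and 4 of 13 in Hras.Myc cells. Its main promoter scored 9.81 in Hdac7SA.Mef2d cells, 9.11 with PD, 10.8 with TSA and 9.88 untreated in Hras.E1A cells, and 9.35 with PD, 9.62 with TSA and 10.2 untreated in Hras.Myc cells. Of its 14 loci 5 lie at promoters of neighbouring genes, the highest number of the 10 genes. Sptan1 had 0 loci that were open in Hdac7SA.Mef2d cells alone.

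Sptbn1 encodes beta-II spectrin, the partner of alpha-II spectrin in most cells. Of its 36 loci 31 were open in Hdac7SA.Mef2d cells, against 11 in Hras.E1A and 9 in Hras.Myc cells untreated. Of the 31, 74.2% had no peak in untreated Hras.E1A cells, against 44.9% over all loci of that list. The share without a peak in untreated Hras.Myc cells was 80.6%, against 55.0%. PD closed 5 of the 11 loci of Hras.E1A cells and opened 7, and in Hras.Myc cells it closed 5 of 9 and opened 2. More loci were thus opened than closed at Sptbn1 in Hras.E1A cells, but the counts were equal, 4 and 4, with the stricter threshold. In lists of equal length 9 opened and 3 closed, and Add1, Epb41, Sptan1 and Utrn then also had more loci opened than closed in Hras.E1A cells. Of the 7 loci opened, 5 were also open in Hdac7SA.Mef2d cells, where they scored between 1.67 and 10.5. Hdac7SA.Mef2d cells were open at 118624 of all 147985 loci, and at 2556 of the 4062 loci that PD opened in both lines.

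Its locus 35, 24.8 kb before the start, scored 6.07 in Hdac7SA.Mef2d cells, 4.68 with PD in Hras.E1A cells and 10.9 with PD in Hras.Myc cells, and had no peak in the other 4 lists. At locus 34, 1.58 kb away, the reverse was seen. That locus had no peak in Hdac7SA.Mef2d cells or with PD, and scored 6.54 with TSA and 10.8 untreated in Hras.E1A cells and 6.75 untreated in Hras.Myc cells. An exon locus of Sptbn1 (locus 7, exon 28) opened with PD in both lines as well, with scores of 6.07 and 7.43, and was closed in Hdac7SA.Mef2d cells. The 5′ promoter was open in all 7 lists, with scores from 2.21 to 4.88.

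Among the 4.1 proteins, Epb41l2 and Epb41l3 lost the largest shares in Hras.E1A cells. Epb41l2 encodes 4.1G, the widely expressed form, and lost 12 of 20 loci in Hras.E1A cells (60.0%, interval 36.1 to 80.9) and 7 of 12 in Hras.Myc cells (58.3%, 27.7 to 84.8), with 6 of 13 and 6 of 11 in lists of equal length. All but 2 of the 12 lie inside the gene. Locus 20, in intron 1, scored 4.11 in Hdac7SA.Mef2d cells, 9.95 with TSA and 2.77 untreated in Hras.E1A cells, and 11.1 with TSA and 4.65 untreated in Hras.Myc cells. Locus 9 of the same intron scored 7.74 with TSA and 4.86 untreated in Hras.E1A cells, 4.04 with TSA and 9.59 untreated in Hras.Myc cells, and had no peak in Hdac7SA.Mef2d cells. With PD neither had a peak in either line. Over the loci of Epb41l2 that stayed open, the percentile of the score fell by 26.7 with PD in Hras.E1A cells and fell by 23.9 in Hras.Myc cells. These medians rest on 8 and 5 loci, and over all kept loci the percentile rose by 1.09 and 0.054. The promoter of Epb41l2 was open in all 7 lists with scores from 5.40 to 9.44.

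Epb41l3 encodes 4.1B, a form lost in some tumours, and was open at more loci in Hras.E1A than in Hras.Myc cells. Hras.E1A cells had 17 open loci and Hras.Myc cells 7. Of the 17, 10 had no peak in Hras.Myc cells (58.8%, interval 32.9 to 81.6, against 25.2% over all loci). The difference was smaller in shorter lists, with 11 and 7 open loci at equal length and 11 and 6 with the stricter threshold. PD closed 10 of 17 in Hras.E1A cells (58.8%, interval 32.9 to 81.6) and 3 of 7 in Hras.Myc cells, and opened 0 in either. Hdac7SA.Mef2d cells had 26 open loci, of which 12 were open in no other list. The most highly scored of these, in the first part of the gene (locus 2), had a score of 11.7. The locus at the annotated start of the gene (locus 1) was open in all 7 lists with scores from 3.56 to 7.59. It counts here as an intron locus because the basic gene set holds no transcript that starts there.

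Epb41, which encodes 4.1R, the founding red cell form, lost 6 of 16 loci in Hras.E1A cells and 9 of 17 in Hras.Myc cells. Both of its promoters were open in all 7 lists, with scores from 9.40 to 11.7 at the inner start and from 6.04 to 8.38 at the outer one. It had 2 loci that PD opened in both lines and that were open in Hdac7SA.Mef2d cells. Over the whole series, 2556 of the 4062 loci opened in both lines were open in that list. Locus 15, in intron 11, scored 8.38 in Hdac7SA.Mef2d cells, 5.95 with PD in Hras.E1A cells and 7.70 with PD in Hras.Myc cells. Epb41l1, which encodes 4.1N, the form typical of neurons, lost 8 of 18 loci in Hras.E1A cells and 8 of 15 in Hras.Myc cells, and its 2 promoters stayed open throughout. Of the loci lost in both lines, the one with the highest untreated score in Hras.E1A cells lay in intron 22 (locus 21), while locus 16 scored higher in Hras.Myc cells, at 6.80. Locus 21 had scores of 4.26 in Hdac7SA.Mef2d cells, 9.33 with TSA and 10.6 untreated in Hras.E1A cells, and 1.94 with TSA and 5.48 untreated in Hras.Myc cells.

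Utrn spans 487 kb and held 67 of the 288 loci, at a density of 11.4 per 100 kb of window, inside the range of 7.73 to 13.4 over the 10 genes. PD closed 13 of 32 loci in Hras.E1A cells (40.6%, interval 23.7 to 59.4) and 15 of 30 in Hras.Myc cells (50.0%, 31.3 to 68.7). It opened 4 and 6. In Hras.E1A cells the share closed was 63.6% (14 of 22) with the stricter threshold and 33.3% (7 of 21) in lists of equal length. The 5′ promoter (locus 59) was open in all 7 lists with scores from 3.8 to 5.4. The start site at exon 2 (locus 57) followed the internal start of Add2. It had no peak in Hdac7SA.Mef2d cells or with PD, and scored 5.88 with TSA and 2.73 untreated in Hras.E1A cells, and 9.31 with TSA and 4.75 untreated in Hras.Myc cells. A further start in intron 51 (locus 13) lost its peak in Hras.Myc cells, with PD and with TSA, against a score of 5.97 untreated, and kept it in Hras.E1A cells at 8.24 with PD, 5.66 with TSA and 7.39 untreated.

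Of the Utrn loci that PD kept, 15 of 19 in Hras.E1A cells (78.9%) and 10 of 15 in Hras.Myc cells (66.7%) ranked lower with PD than untreated, against 47.1% and 49.8% of all kept loci. Locus 43 in intron 2 scored 14.8 in Hdac7SA.Mef2d cells, 7.52 with PD, 17.2 with TSA and 17.2 untreated in Hras.E1A cells, and 8.74 with PD, 20.8 with TSA and 15.7 untreated in Hras.Myc cells. It was chosen after its values were seen. Over the Utrn loci that stayed open, the percentile of the score in its list fell by 17.9 with PD in Hras.E1A cells and fell by 6.5 in Hras.Myc cells (medians). Over all kept loci it rose by 1.09 and 0.054. PD opened locus 34, in intron 23, to 10.5 in Hras.E1A and 9.22 in Hras.Myc cells, and this locus scored 4.08 in Hdac7SA.Mef2d cells. Locus 35, in intron 19, scored 8.47 in Hdac7SA.Mef2d cells, and 4.96 and 8.38 with PD in Hras.E1A and Hras.Myc cells.

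**Figure D4:**
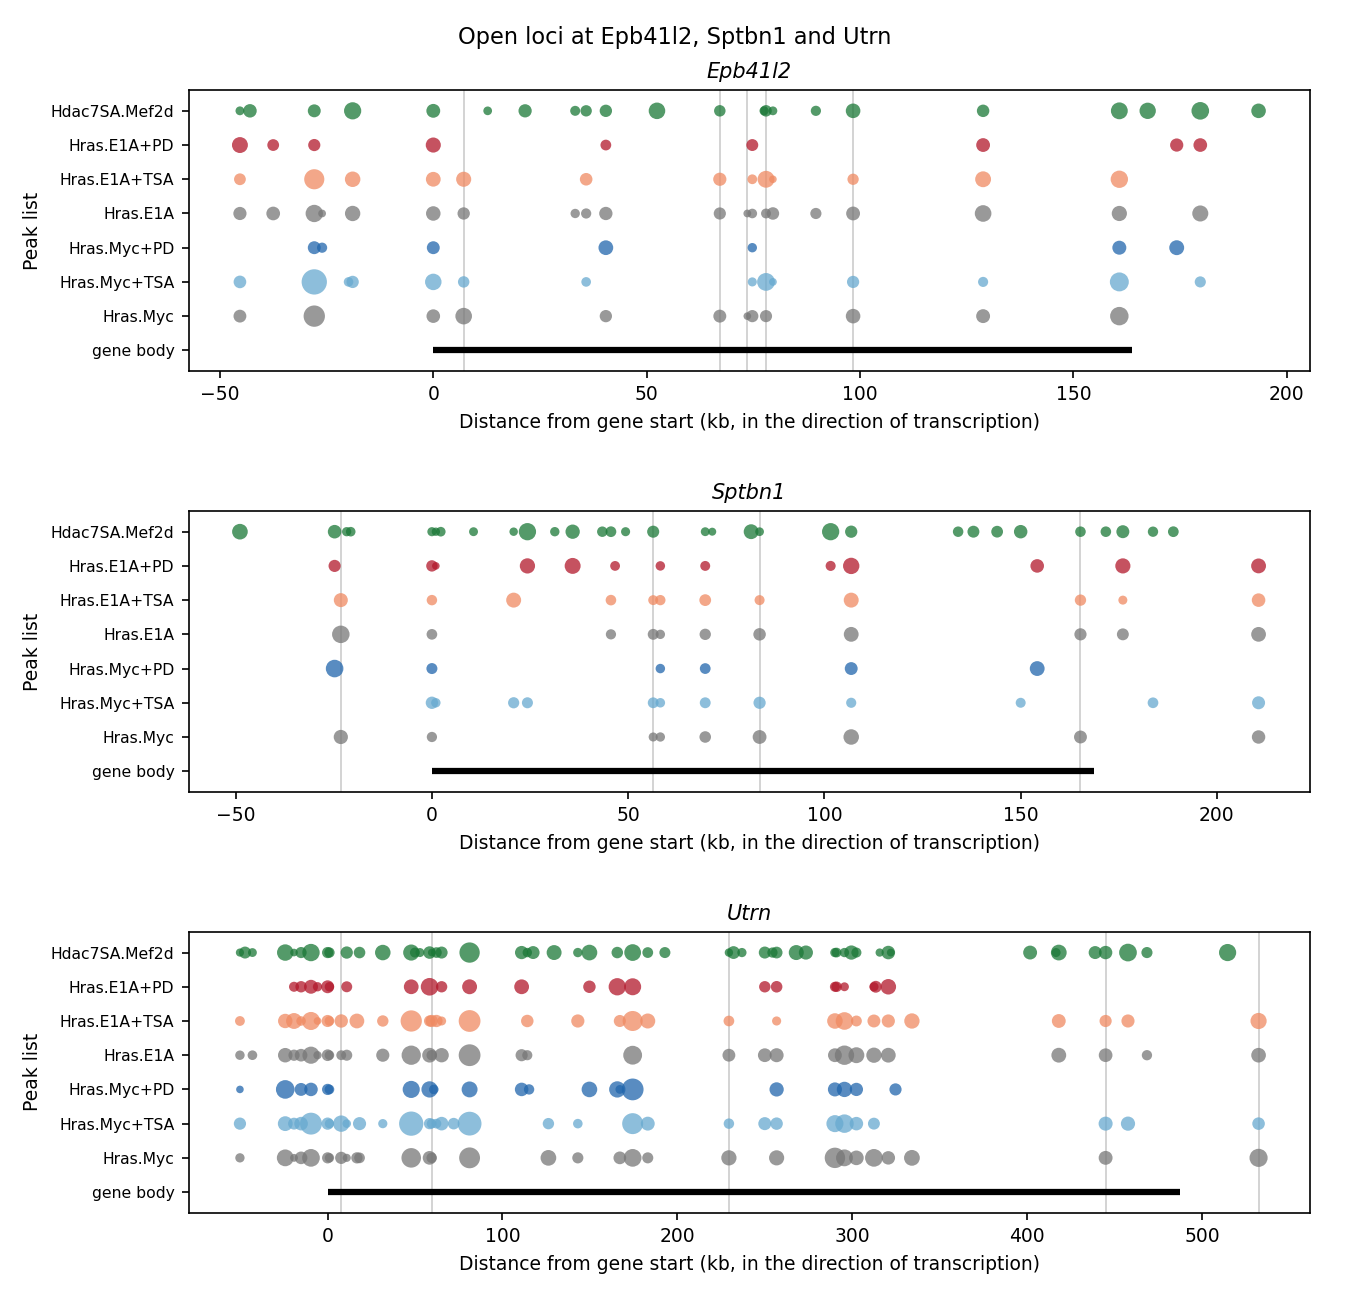
Open loci at Epb41l2, Sptbn1 and Utrn in the 7 peak lists (rows) by distance from the gene start in kb (x axis). Each dot is a locus with a peak, its area grows with the score as in the map of Add2, the black bar is the gene body and grey lines mark loci closed with PD in both Hras lines. At Sptbn1 the row of Hdac7SA.Mef2d holds 31 loci, against 11 and 9 in the rows of untreated Hras.E1A and Hras.Myc cells. Over all loci of the series these 3 lists were open at 118624, 80569 and 67178.

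Both untreated Hras lists were open at 126 loci, of which PD closed 37 in both, 29.4% (interval 21.6 to 38.1), against 24.4% over all loci. The counts were 8 at Add2, 5 each at Epb41, Epb41l2 and Utrn, 4 each at Epb41l1 and Sptbn1, 3 at Add3, and 1 each at Add1, Epb41l3 and Sptan1. Hdac7SA.Mef2d cells had a peak at 21 of the 37, 56.8% (39.5 to 72.9), against 61.8% over all loci closed in both lines. TSA left 25 of the 37 open in both lines, 67.6%, against 74.7% over all loci. PD kept 62 of the 126 in both lines (49.2%, against 57.9%), closed 9 in Hras.E1A cells alone (7.14%, against 8.14%) and closed 18 in Hras.Myc cells alone (14.3%, against 9.54%).

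With TSA, the shares of changed loci lay near those over all loci in the lists as deposited, and above them in shorter lists. TSA closed 27 of 166 loci in Hras.E1A cells (16.3%, against 15.8% over all loci) and 24 of 143 in Hras.Myc cells (16.8%, against 16.4%). It opened 18 of the 157 loci open with TSA in Hras.E1A cells (11.5%, against 14.2%) and 30 of 149 in Hras.Myc cells (20.1%, against 20.3%). Epb41l2 had the most loci closed with TSA, 7 of 20, in Hras.E1A cells. In lists of equal length the shares closed with TSA were 29.1% at these genes, against 20.2% over all loci, in Hras.E1A cells, and 26.5%, against 22.0%, in Hras.Myc cells. The shares opened were then 27.8%, against 20.2%, and 25.2%, against 22.0%. With the stricter threshold they were 26.7%, against 18.4%, in Hras.E1A cells and 32.7%, against 25.1%, in Hras.Myc cells. The TSA lists hold 1 sample each.

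Hdac7SA.Mef2d cells were open at 235 of the 288 loci, against 166 in Hras.E1A and 143 in Hras.Myc cells untreated. Over all 147985 loci the counts were 118624, 80569 and 67178. Of the 235, 43.4% had no peak in untreated Hras.E1A cells (44.9% over all loci) and 53.2% none in untreated Hras.Myc cells (55.0%). Of the 235, 93 were open in neither untreated Hras line, 39.6% (33.3 to 46.1), against 42.6% over all loci, and 69 in no other list, 29.4% (23.6 to 35.6), against 29.9%. Utrn held 18, Sptbn1 15 and Epb41l3 12 of the 69. Of the 20 own promoter loci, 2 were open in this list alone, 10% (1.23 to 31.7), against 3.47% over all promoter loci. These lay at inner starts of Sptbn1 and Utrn and scored 2.17 and 3.05. Between the untreated Hras lines, 40 of the 166 loci of Hras.E1A had no peak in Hras.Myc cells, 24.1% against 25.2% over all loci. All 7 lists were open at 54 of the 288 loci, 18.8%, against 20.2% over all loci.

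Taken over all positions, AP-1 motifs were more frequent in closed than in kept loci, at these genes and over all loci. They were present in the central 200 bp of 38 of the 73 loci that PD closed in Hras.E1A cells, 52.1% (40 to 63.9), and in 19 of the 93 loci kept, 20.4% (12.8 to 30.1). Over all loci the shares were 57.3% and 16.7%. In Hras.Myc cells 33 of 69 closed loci had the motif, 47.8% (35.6 to 60.2), and 19 of 74 kept loci, 25.7% (16.2 to 37.2), against 53.6% and 21.7% over all loci. Of the 37 loci closed in both lines 22 had it, 59.5%, and of the 62 kept in both 12, 19.4%, while 29.2% of all 147985 loci had it. At Add3 all 5 loci closed in Hras.E1A cells held it, at Add2 7 of 11, at Epb41l1 2 of 8 and at Sptan1 0 of 1. Not every gene showed the difference. In Hras.Myc cells Utrn had the motif in 8 of 15 closed and 8 of 15 kept loci, Epb41l2 in 3 of 7 and 3 of 5, and Add1 in 0 of 2 and 3 of 10. Closed and kept loci also differed in position. In each line, the loci kept held 16 own promoter and 12 neighbouring promoter loci, and the loci closed held 3 and 0. Motif shares away from promoters are not given here, and the part of position in the difference was not tested.

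TEAD motifs were present in 4 of the 7 loci opened in both lines, 57.1% with an interval of 18.4 to 90.1, and in 30.8% of all loci opened in both lines and 18.9% of all loci. The ETS motif CCGGAA was found in 0 of the 73 loci closed in Hras.E1A cells and in 10 of the 93 kept, against 2.79% and 8.57% over all loci. The count of 0 allows a share of up to 4.11%, taken as 3 counts of the 73 and not as a Clopper-Pearson limit. MEF2 motifs were present in 8 of the 69 loci open in Hdac7SA.Mef2d cells alone, 11.6%, against 8.01% of all such loci and 3.8% of all loci. RUNX (TGTGGT) was found in 19.8% of the 288 loci and 18.9% of all loci, KLF (GGGNGTGG) in 6.94% and 6.57%, the E-box CACGTG in 3.13% and 3.24%, CTCF in 1.04% and 1.90% and the CArG box in 0.35% and 1.23%. Base composition differed between the states, with a median GC content of 47.5% in closed and 53% in kept loci of Hras.E1A cells. So did position, with 3 own promoter and 0 neighbouring promoter loci among the 73 closed, and 16 and 12 among the 93 kept. The part of either in the motif shares was not tested.

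**Figure D5:**
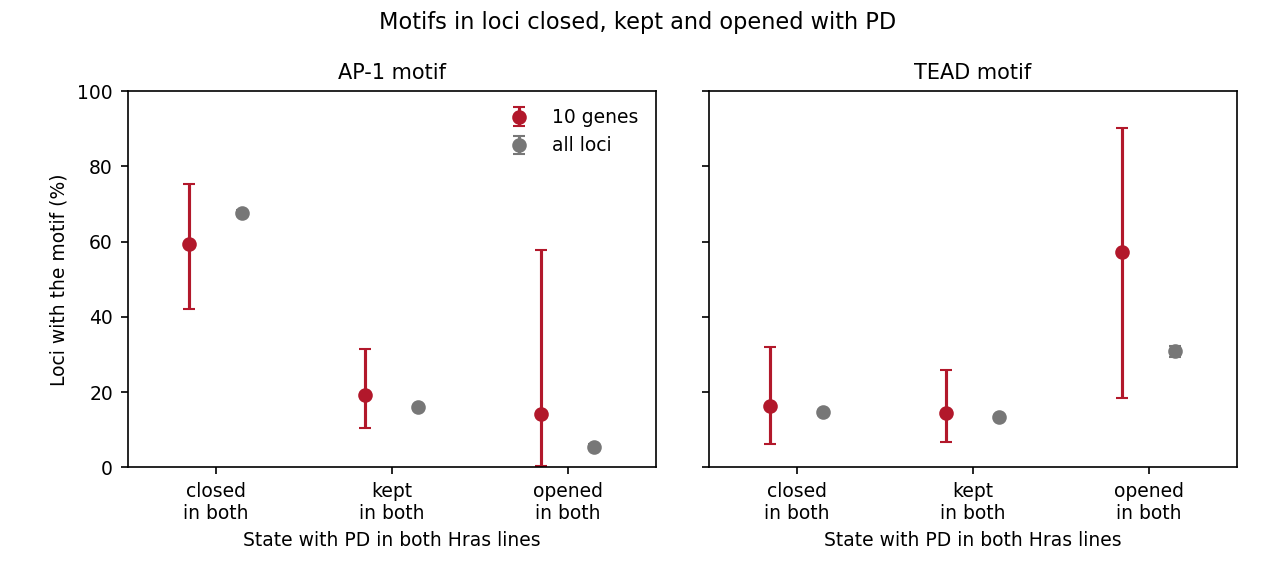
Share of loci with an AP-1 motif (left) and a TEAD motif (right) in the central 200 bp (y axis, percent), for loci closed, kept and opened with PD in both Hras lines (x axis). Red points are the 10 genes (37, 62 and 7 loci), grey points all loci, and bars are 95% exact binomial intervals. The AP-1 share is 59.5% in closed and 19.4% in kept loci of the 10 genes, against 67.5% and 16.0% over all loci.

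The limit of 50 kb from the gene left near neighbours on both sides. The last locus inside it lies 49.9 kb before Utrn and was open in 6 of 7 lists, with no peak in Hras.E1A cells with PD, and the first outside it lies 53.2 kb before Utrn and was open in all 7. Other genes of the membrane skeleton were counted in the same way, as a list of 37 genes that includes ankyrins, syntrophins and tropomyosins, of which 36 were in the annotation, with 695 loci. PD closed 131 of 414 of their loci in Hras.E1A cells, 31.6% (27.2 to 36.4), and 132 of 380 in Hras.Myc cells, 34.7% (30 to 39.8). Away from promoters the shares were 51.9% and 58.9% for the 10 genes, against 39.6% and 44.3% for this list and 46.3% and 46.9% over all loci away from promoters. The 10 genes include Add2, Epb41l2 and Utrn, which had been named earlier for loci closed with PD.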

How the data were processed

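ATAC-seq libraries of about 50000 cells were made from 12 samples in 7 groups. Alignment with Bowtie2 2.4.5, peak calling with MACS2 2.2.7.1 and the mm10 build are named in the submitters' processing notes. The study's methods describe a redefine_peaks step that recovers weak peaks from those of other samples, so the lists are not independent. The authors deposited 1 pooled peak list per group, in which every peak is 400 bp wide and carries a score of unstated scale. The sources used here do not say how replicates were combined.

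Peaks of the 7 lists that shared at least 1 bp were joined into loci in Python 3.11.15, and genes were taken from the GENCODE basic annotation of GRCm38. A locus was closed where only the untreated list had a peak and opened where only the treated list had one. Own promoters lie within 1000 bp of a coding start site of the gene. Shares carry 95% Clopper-Pearson intervals (scipy 1.17.1). Motifs were searched on both strands of the central 200 bp. The bases before Add2 are from RefSeq (GRCm38.p6), which holds all other printed bases too. State calling was tested on simulated lists.

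The members, the other gene lists and the motifs were chosen with earlier results of these data known. All 10 genes were named. For each, the named loci were its own promoters, up to 3 loci closed and up to 2 opened with PD in both lines by summed score, up to 2 open in Hdac7SA.Mef2d alone, and those changed in opposite directions, with exceptions stated. Alternatives were a stricter score threshold, lists of equal size, 50% cover of the locus, windows of 10 kb and of the gene body, and leaving out promoters of other genes.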

Additional observations from a re-analysis of the deposited data

Results flagged for a closer look

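At 4 loci PD removed the peak in one Hras line and added one in the other. Of the 288 loci, 2 closed in Hras.E1A and opened in Hras.Myc cells, and 2 did the reverse. Over all 147985 loci the counts were 1280 and 434, so such loci were not particular to these genes. Each state rests on 1 pooled list, so the difference between the lines was not tested. At the Add3 locus of chromosome 19 starting at 53265249, downstream of the gene, Hras.E1A cells had a peak with PD (score 5.98) and none untreated, whereas Hras.Myc cells had none with PD and a peak untreated (2.71). The Sptan1 locus of chromosome 2 starting at 30033504 had the same pattern, with a score of 3.2 in Hras.E1A cells with PD and of 1.41 in untreated Hras.Myc cells. The Epb41l1 locus of chromosome 2 starting at 156407041, upstream of the gene, showed the reverse, with a score of 8.1 in Hras.Myc cells with PD and of 1.92 in untreated Hras.E1A cells. The Epb41l2 locus of chromosome 10 starting at 25333507 did so too, with a score of 3 in Hras.Myc cells with PD and of 1.34 in untreated Hras.E1A cells. In 3 of the 4, the untreated peak scored below 2, close to the lowest score of 1.2 that the lists hold.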

How the results depend on the processing

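No paired analysis was possible because the replicates of each group are pooled in 1 list, and for the same reason no replicate could be left out. Of the recomputed shares, 56 stayed within the counting interval of the value reported and 12 did not. The 56 include every share of the 50% cover setting, which equalled the reported values. Peaks of different lists on a locus lie at identical positions, so that setting could hardly change a call. With lists of equal size, the share of member loci closed with PD in Hras.E1A was 35.5%, while PD opened 33.6% there and 30.4% in Hras.Myc cells. With TSA in that setting, 29.1% closed and 27.8% opened in Hras.E1A and 26.5% closed in Hras.Myc. The share of Hdac7SA.Mef2d loci open in neither untreated Hras line was then 47.2%, and that of Hras.E1A loci not open in Hras.Myc 16.4%. With the 25% of peaks with the lowest scores dropped from each list, TSA closed 24.8% and opened 26.7% in Hras.E1A (19.97% and 18.4% over all loci), and closed 26.0% and opened 32.7% in Hras.Myc (21.7% and 25.1%). Every one of these alternatives has fewer peaks than the deposited lists. The share closed with PD ranged from 35.5% to 50.5% in Hras.E1A and from 44.0% to 54.1% in Hras.Myc. The alternatives without Add2, and without Add2, Epb41l2 and Utrn, were chosen after seeing the data. Depth is unknown, so a locus called closed may still hold reads below the score limit.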
